A study of Mus musculus with 4 samples.

Results

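The 8 genes described here encode the weapons of killer lymphocytes: the granzymes A, B and K (Gzma, Gzmb, Gzmk), the pore-forming protein perforin (Prf1), the granule proteins Nkg7 and cathepsin W (Ctsw), the cytokine IFN-γ (Ifng) and the death ligand Fas ligand (Fasl). They are 8 of the 32285 genes counted in a single-cell RNA-Seq study of YUMMER1.7 melanoma, a mouse tumor line grown under the skin of WT C57BL/6J male mice of 7 to 8 weeks of age. Mice received isotype control IgG1, anti–PD-1 (clone RMP1-14), anti-MIF, an antibody to the cytokine macrophage migration inhibitory factor (clone IIID.9), or both antibodies (hereafter the combination), and tumors were taken in a long treatment cohort (2 weeks, 4 doses, day 21) and a short treatment cohort (1 week, 2 doses, day 14). Sorted cells were recombined as 80% CD45+ and 20% CD45- cells, so the shares of all cells given here are shares of that mixture. Each arm of a cohort was 1 hashtagged sample without a replicate, the number of mice behind it was not given in the sources used here, and the 4 arms of a cohort shared 1 library, so cohort and library cannot be told apart.

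Cells were placed in classes by their own unique molecular identifiers (UMIs, 1 per captured RNA molecule). A CD8 T cell held UMIs of Cd3e and Cd8a, a CD4 T cell of Cd3e and Cd4, and an NK cell of Ncr1 without Cd3e. Of 4790 cells kept in the 8 arms, 386 were CD8 T cells (204 in the long and 182 in the short cohort), 63 CD4 T cells (27 and 36), 141 NK cells (34 and 107) and 4197 other cells, while 3 cells with Cd3e, Cd4 and Cd8a were left out. In the order isotype, anti–PD-1, anti-MIF, combination, the arms held 204, 319, 879 and 269 cells (long) and 745, 1370, 556 and 448 cells (short), with a median of 5575 to 9803 UMIs per cell. CD8 T cells numbered 54, 48, 67 and 35 in the long arms and 14, 114, 33 and 21 in the short arms. NK cells numbered 4, 10, 11 and 9 and then 14, 77, 8 and 8, and CD4 T cells 1, 6, 15 and 5 and then 13, 13, 5 and 5. An arm with fewer than 5 cells of a class entered no mean, SD or fit of that class. Levels are UMIs scaled to 1000000 UMIs of the class (CPM), and they are compared between cells for 1 gene at a time, not between genes.

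The classes carried the markers of their names. In CD8 T cells of the long cohort the most abundant of 7 T cell markers was Cd3g, and Ncr1, Klra8 and Klra4 were at 0 in CD8 T cells of both cohorts. In CD4 T cells of the long cohort Ctla4 was the most abundant of 5 CD4 T cell markers. In NK cells of the same cohort the 7 NK markers other than Ncr1, which the rule used, summed to 2040 CPM, against 198 CPM in CD8 T cells. The other cells were mostly myeloid, and the 1405 of the long cohort held 11687 CPM of 11 monocyte and macrophage markers. Of the melanoma markers, Mlana, Tyr, Tyrp1, Dct and Sox10 were at 0 in every class although CD45- cells had been put back. The paper names YUMMER1.7 cells in its analysis of cell interactions, so these values at 0 do not show that tumor cells were absent.

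Killing by granule exocytosis starts when a CD8 T cell or NK cell recognizes a target and docks its granules at the contact. Perforin opens the target membrane and granzymes, which are serine proteases, enter and start cell death. Granzyme B cleaves caspases and their substrates, granzyme A has a trypsin-like specificity and granzyme K is its closest relative, encoded next to it. Fas ligand starts death through the receptor Fas, and IFN-γ acts on target and bystander cells through the receptor subunits Ifngr1 and Ifngr2 and raises antigen presentation.

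Positions are those of whole genes in GENCODE vM21 (GRCm38). Gzmb (ENSMUSG00000015437) is at chr14:56258838-56262260 on the minus strand, Prf1 (ENSMUSG00000037202) at chr10:61297833-61304680 on the plus strand and Nkg7 (ENSMUSG00000004612) at chr7:43437073-43438249 on the plus strand. Ctsw (ENSMUSG00000024910) is at chr19:5465043-5468507 on the minus strand, Ifng (ENSMUSG00000055170) at chr10:118441046-118445892 on the plus strand and Fasl (ENSMUSG00000000817) at chr1:161780689-161788495 on the minus strand.

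Gzma (ENSMUSG00000023132) and Gzmk (ENSMUSG00000042385) lie on the same strand of mouse chromosome 13 with 70.6 kb between them, at chr13:113093825-113100981 and chr13:113171608-113225908 (GRCm38, minus strand), yet of the 8 members they showed the largest fitted differences between NK and CD8 T cells, in opposite directions. Their promoters are shown for that reason, from 250 bases before to 50 bases after the start site, 5′ to 3′ on the strand of the gene, from RefSeq (GRCm38.p6). A script searched both strands for 2 motifs that do not overlap, the T-box motif TCACACC and the Runt motif TGTGGTTT, and capitals mark a match. The RefSeq start of Gzmk lies inside the longer GENCODE span given above. The matches are descriptions of letters and not of bound sites.
Gzma promoter, chr13:113100932-113101231: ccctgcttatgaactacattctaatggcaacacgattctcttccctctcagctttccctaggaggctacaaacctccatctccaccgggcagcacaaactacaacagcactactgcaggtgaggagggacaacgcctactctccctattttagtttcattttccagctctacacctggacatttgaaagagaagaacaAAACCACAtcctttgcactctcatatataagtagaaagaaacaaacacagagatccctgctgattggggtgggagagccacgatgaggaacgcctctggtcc
Gzmk promoter, chr13:113180916-113181215: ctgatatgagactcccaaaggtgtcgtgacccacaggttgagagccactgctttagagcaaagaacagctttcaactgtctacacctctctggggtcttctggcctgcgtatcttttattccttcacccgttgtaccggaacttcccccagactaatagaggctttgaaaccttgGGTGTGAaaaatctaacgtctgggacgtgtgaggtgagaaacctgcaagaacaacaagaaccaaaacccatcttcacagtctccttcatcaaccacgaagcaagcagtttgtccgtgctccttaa

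The Gzma window held the Runt motif on the other strand from position -52, and the Gzmk window held the T-box motif on the other strand from position -75, counted from the start site. Of 32851 promoters, 586 (1.78%) held the Runt motif and 1307 (3.98%) the T-box motif. Among the 7 members with an entry in the promoter table, the Runt motif was found for Gzma and the T-box motif for Gzmk and Nkg7.

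The first question was which cells held each effector. Gzma was an NK gene in these tumors. Values of 4 arms are given in the order isotype, anti–PD-1, anti-MIF, combination throughout. NK cells held Gzma at 5857 (4 cells), 3919, 7736 and 6110 CPM in the long arms and at 5854, 5237, 7437 and 6200 CPM in the short arms. CD8 T cells held 13.8, 0, 0 and 54.3 CPM in the long arms, where the values at 0 allow up to 10.1 and 6.03 CPM by the limit of 3 counts, and 0 (up to 45.7), 164, 95.1 and 166 CPM in the short arms. Every NK value lay above every CD8 T value. Over arms the mean was 6070 ± 1293 CPM in NK cells (SD, n = 7) and 61.7 ± 72.0 in CD8 T cells (SD, n = 8), a 107-fold difference in the fit (log2 fold change 6.74 ± 0.54 SE, adjusted p = 1.14e-07 by the quasi-likelihood test of edgeR with a block for arm, higher in 7 of 7 arms).

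Gzmk was the mirror image. CD8 T cells held 218, 144, 145 and 109 CPM in the long arms and 15.2, 188, 50.7 and 87.9 in the short arms, while the 141 NK cells of both cohorts held 8 Gzmk UMIs and the 63 CD4 T cells held 2. The short isotype arm, the lowest, rested on 1 UMI, and the groups of long and short arms overlapped. NK cells were 18.1-fold lower than CD8 T cells (log2 fold change -4.18 ± 0.46 SE, adjusted p = 5.30e-06 by edgeR, lower in 7 of 7 arms). Of all Gzmk UMIs, CD8 T cells held 96.5% in the long cohort and 83.0% in the short cohort.

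**Figure D1:**
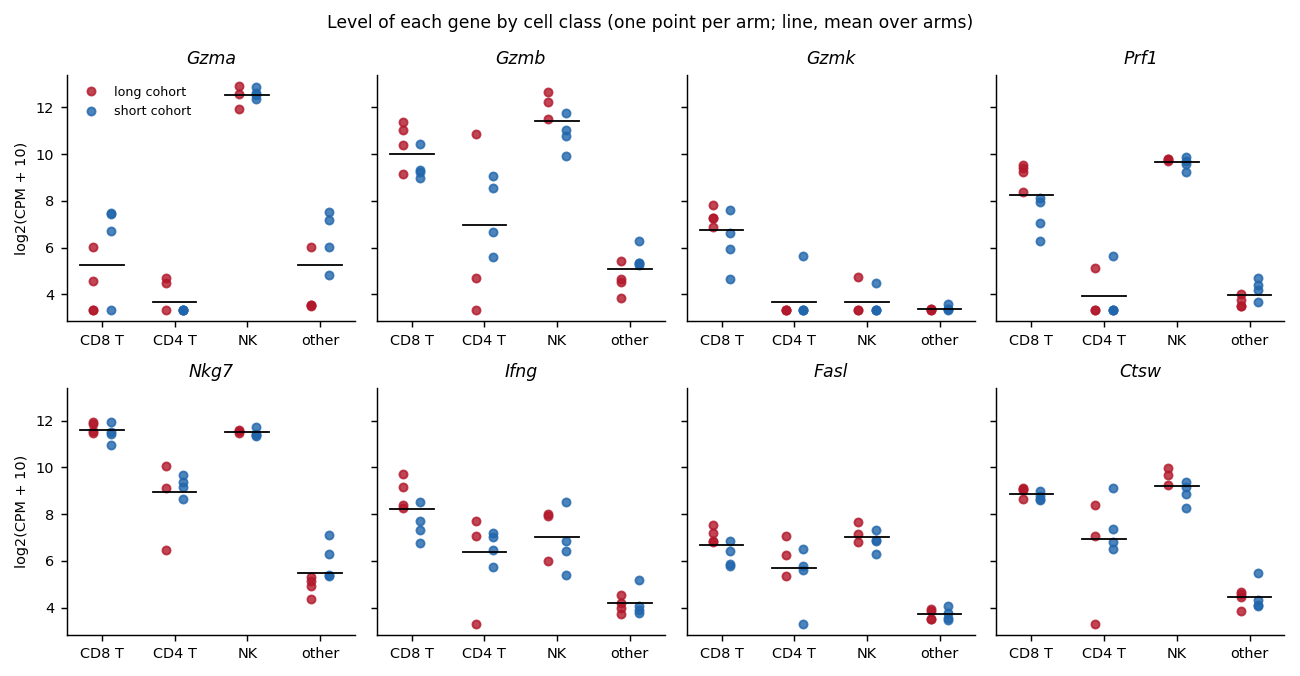
Level of each of the 8 genes, as log2(CPM + 10), in CD8 T, CD4 T, NK and other cells. Each point is 1 arm with at least 5 cells of the class (red, long cohort; blue, short cohort) and the line is the mean over arms; Gzma stands apart in NK cells, Gzmk in CD8 T cells, and Nkg7 overlaps between the 2.

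Gzmb was found in both killer classes. NK cells held 1260 (4 cells), 2914, 4780 and 6425 CPM in the long arms and 1720, 2091, 3424 and 946 in the short arms. CD8 T cells held 1347, 2087, 550 and 2627 CPM in the long arms and 624, 1382, 488 and 586 in the short arms. NK cells lay above CD8 T cells in each of the 7 arms compared, by 2.72-fold (log2 fold change 1.44 ± 0.27 SE, adjusted p = 0.00120 by edgeR). In CD4 T cells Gzmb ranged from 0 to 1840 CPM, with the highest value in the long anti-MIF arm, where 15 cells held 150 UMIs.

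Prf1 followed the same order at a narrower spread in NK cells. NK cells held it at 667 (4 cells), 814, 885 and 863 CPM in the long arms and at 811, 599, 918 and 747 CPM in the short arms. CD8 T cells of the long isotype, anti–PD-1 and combination arms reached 672, 729 and 593 CPM, and the highest short value was 271. Its mean was 805 ± 107 CPM in NK cells (SD, n = 7) and 377 ± 254 in CD8 T cells (SD, n = 8), 2.56-fold higher in NK cells in the fit (log2 fold change 1.35 ± 0.27 SE, adjusted p = 0.00208 by edgeR, 7 of 7 arms). In the long cohort alone the difference was 0.67 on the log2 scale and did not pass (adjusted p = 0.137 by edgeR), and in the short cohort alone it was 2.01 (adjusted p = 0.000439 by edgeR). CD4 T cells held 4 Prf1 UMIs in all, 2 in each cohort.

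Nkg7, a granule membrane protein needed for degranulation, did not pass between the killer classes. The CD8 T cells held 3025, 3666, 2790 and 3879 CPM in the long arms and 1979, 3862, 2934 and 2735 in the short arms. NK cells held 2249 (4 cells), 2990, 3080 and 2806 CPM, then 2618, 2761, 2698 and 3386, inside the range of the CD8 T cells. Its mean was 3109 ± 657 CPM in CD8 T cells (SD, n = 8) and 2906 ± 266 in NK cells (SD, n = 7), with a log2 fold change of -0.12 ± 0.13 (SE; adjusted p = 0.654 by edgeR, higher in NK cells in 3 of 7 arms); a p above the threshold does not show that the levels were equal. Ctsw, a papain-like protease of killer lymphocytes, stood at 393, 534, 550 and 514 CPM in the long CD8 T cells and 381, 495, 425 and 391 in the short ones. NK cells held 1005, 602 and 797 CPM in the long arms with at least 5 cells, and 454, 555, 657 and 299 in the short arms, so the classes overlapped. The means were 460.2 ± 70.4 CPM in CD8 T cells and 624 ± 230 in NK cells (log2 fold change 0.34 ± 0.16 SE, adjusted p = 0.188 by edgeR). Among the 8 members Ctsw varied least between the arms in CD8 T cells relative to its mean, from 381 to 550 CPM.

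Of the secreted and surface ligands, Ifng stood higher in CD8 T cells. NK cells held 229, 53.1 and 249 CPM in the long arms with at least 5 cells and 32.5, 105, 356 and 74.7 in the short arms, and the short anti-MIF arm alone exceeded its CD8 T cells (196 CPM). CD8 T cells held 352 ± 238 CPM (SD, n = 8) and NK cells 157 ± 122 (SD, n = 7), and NK cells were 2.41-fold lower (log2 fold change -1.27 ± 0.31 SE, adjusted p = 0.00786 by edgeR, lower in 6 of 7 arms). In the short cohort alone the log2 fold change was -0.85 and did not pass (adjusted p = 0.30 by edgeR). Fasl lay at 102, 104, 173 and 138 CPM in CD8 T cells of the long arms and 45.7, 105, 76.0 and 48.8 in the short arms, with NK cells between 68.5 and 195 CPM. Its means were 99.0 ± 42.9 CPM in CD8 T cells and 123 ± 40.5 in NK cells (log2 fold change 0.19 ± 0.24 SE, adjusted p = 0.754 by edgeR). Of the 8 members, 3 were therefore higher in NK cells, against 7.69% of all 2276 genes tested, and 2 were lower, against 8.17%.

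CD4 T cells stood below CD8 T cells for most members. Nkg7 was at 78.3, 552 and 1057 CPM in the long arms with at least 5 cells and 565, 645, 817 and 389 in the short arms, all below the lowest CD8 T value of 1979. Ifng was at 125, 0 and 198 CPM, then 43.5, 121, 136 and 77.8, and Prf1 at 0 in 5 of the 7 arms. In the fit over 7 arms 6 of 8 members were higher in CD8 T cells, against 6.45% of 2015 genes tested. Prf1 differed by 28.2-fold (log2 fold change 4.82 ± 0.52 SE, adjusted p = 7.38e-06 by edgeR, 7 of 7 arms) and Nkg7 by 6.81-fold (2.77 ± 0.29, adjusted p = 4.52e-06 by edgeR, 7 of 7 arms). Ifng differed by 4.53-fold (adjusted p = 0.00136 by edgeR, 7 of 7 arms) and Ctsw by 3.92-fold (adjusted p = 0.00371 by edgeR, 6 of 7 arms).
For Gzmk, whose CD4 T cells held 2 UMIs, the ratio of the summed levels was 22.5 (counting interval 6.15 to 186), and the fit gave adjusted p = 0.000457 by edgeR. Gzmb passed narrowly (log2 fold change 2.07 ± 0.65 SE, adjusted p = 0.0457 by edgeR, 6 of 7 arms), and the call was lost without any one of 5 arms and with 7 other settings. Gzma was at 2 UMIs in CD4 T cells (ratio 11.6, counting interval 3.15 to 96.9; adjusted p = 0.181 by edgeR) and Fasl was 2.08-fold higher in CD8 T cells without passing (adjusted p = 0.114 by edgeR, 7 of 7 arms).

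The CD4 T cells that held a Foxp3 UMI, which marks regulatory T cells, could be compared with those without it only as pooled sums, since 1 arm alone had 5 cells on each side. Gzmb stood in the long cohort at 1101 CPM (exact interval 907 to 1325) in 10 cells with Foxp3 and 612 CPM (435 to 837) in 17 cells without it. The short cohort gave 526 CPM (372 to 721) in 11 cells and 202 CPM (122 to 315) in 25. Nkg7 went the other way, at 354 and 753 CPM in the long cohort, then 318 and 808 in the short one. Ctsw stood at 9.83 and 220 CPM and then 41.5 and 255. The values of the long cohort rest on 1 arm: 150 of the 151 Gzmb UMIs of its CD4 T cells came from the anti-MIF arm, and without that arm only 2 cells with Foxp3 were left, which held no UMI of Gzmb, Nkg7 or Ctsw. The 10 cells without Foxp3 then held 1 Gzmb UMI, and Nkg7 at 990 CPM. The short cohort moved with single arms too. Without its isotype arm Gzmb was at 398 and 112 CPM and Nkg7 at 541 and 659 CPM, with and without Foxp3, and without its anti-MIF arm Ctsw was at 47.2 and 148 CPM. No difference was tested.

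The other cells served as the background. In the fit against other cells 7 of 8 members were higher in CD8 T cells, against 24.8% of 9767 genes tested, with Gzma the exception (log2 fold change 0.08 ± 0.43 SE, adjusted p = 0.885 by edgeR). In NK cells 7 of 8 members were higher, against 11.0% of 10289 genes, with Gzmk the exception (log2 fold change 2.31 ± 1.02 SE, adjusted p = 0.0635 by edgeR). That exception depends on the tool and the settings. DESeq2 called 8 of 8 members (adjusted p = 0.0125 for Gzmk), beside 3228 of 10289 genes in either direction. The adjusted p of Gzmk ran up to 0.0843 over the alternatives. The Gzma of the other cells sat in a few of them. Cells without Cd3e, Ncr1, Csf1r, Siglech or a B cell gene held 81 Gzma UMIs in the long cohort, of which 76 were in the 9 cells with another NK marker, and 1725 in the short cohort, of which 1689 were in 80 such cells. Cells without an Ncr1 UMI but with another NK marker were thus counted as other cells under the rule used here.

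Shares of cells with a UMI were compared after thinning each cell to 2000 UMIs and leaving shallower cells out. The background came from Csf1r+ cells without Cd3e and Ncr1, which are macrophages and monocytes and should lack these genes. Gzma was positive in 23 of 32 NK cells of the long cohort (71.9%, exact interval 53.3% to 86.3%) and 81 of 102 of the short cohort (79.4%, 70.3% to 86.8%), in 2 of 190 (1.05%) and 11 of 164 (6.71%) CD8 T cells, and in 0 of 878 (which allows up to 0.342%) and 3 of 1790 Csf1r+ cells. Without thinning the Gzma shares were 73.5% and 80.4% in NK cells and 3.43% and 6.59% in CD8 T cells. The 123 Gzma UMIs of the short CD8 T cells lay in 12 of 182 cells.
Nkg7 was positive in 96.3% and 95.7% of thinned CD8 T cells and 0.342% and 0.335% of Csf1r+ cells. Gzmb was positive in 54.2% and 59.1% of thinned CD8 T cells of the long and short cohort, Prf1 in 54.2% and 28.7%, and Ifng in 46.3% and 21.3%. In Csf1r+ cells these 3 genes were positive in 0.342% of thinned cells or fewer. Intervals of shares and of CPM cover counting error only.

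**Figure D2:**
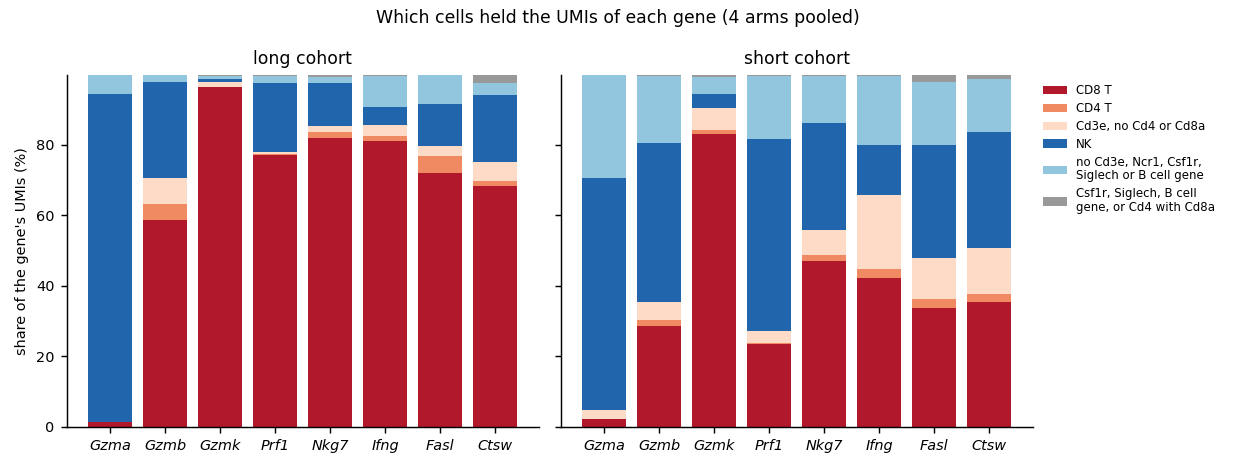
Share of the UMIs of each gene (percent, 4 arms pooled) held by each group of cells in the long and the short cohort. CD8 T cells held 77.3% of Prf1 UMIs in the long cohort but 23.5% in the short cohort, NK cells held 92.9% and 66.1% of Gzma UMIs, and Gzmk came mostly from CD8 T cells in both.

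The source of Prf1 was not the same in the cohorts. Prf1 UMIs came mainly from CD8 T cells in the long cohort (77.3%) and from NK cells in the short cohort (54.5%; 57.3% without the short anti–PD-1 arm). NK cells were 34 of 1671 cells in the long and 107 of 3119 in the short cohort, but 77 of the 107 were in the short anti–PD-1 arm, and without that arm they were 30 of 1749 (1.72%).

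The next question was whether CD8 T cells differed between the cohorts. In a fit with anti-MIF, anti–PD-1 and cohort as additive terms, which takes the spread of the 8 arms about the model as its error, 124 of 4926 genes were higher in the long cohort (2.52%) and 110 were lower (2.23%). Of the members 3 were higher and 1 was lower. Prf1 stood at 672, 729, 325 and 593 CPM in the long arms and at 122, 271, 234 and 68.4 in the short arms. All 4 long arms exceeded all 4 short arms, and the fitted difference was 2.84-fold (log2 fold change 1.51 ± 0.28 SE, adjusted p = 0.00696 by edgeR).
Ifng stood at 329, 564, 297 and 818 CPM in the long arms and 152, 358, 196 and 97.7 in the short arms, which overlap through the short anti–PD-1 arm (log2 fold change 1.10 ± 0.28 SE, adjusted p = 0.0336 by edgeR, higher in 4 of 4 pairs of arms). Gzmb was 1.97-fold higher in the long cohort (0.98 ± 0.23, adjusted p = 0.0242 by edgeR, 4 of 4 pairs). The calls for Ifng and Gzmb were each lost when any one of 6 arms was left out, where the log2 fold changes ran from 0.75 to 1.33 for Ifng and from 0.56 to 1.13 for Gzmb.

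Gzma moved the other way in CD8 T cells (log2 fold change -3.08 ± 0.61 SE, adjusted p = 0.0111 by edgeR, lower in 3 of 4 pairs). The call was lost without the long anti–PD-1 arm (adjusted p = 0.0573 by edgeR), the short anti–PD-1 arm (0.137) or the short anti-MIF arm (0.0883), and by DESeq2 (adjusted p = 0.653). Since Gzma is a gene of NK cells here, the NK markers of these CD8 T cells were measured: the 8 markers summed to 198 CPM (long) and 148 CPM (short), Ncr1, Klra8 and Klra4 were at 0 in both, and 5 of 8 were detected. Without the 7 of 386 CD8 T cells that held Klrb1c or one of those 3 genes the log2 fold change was -3.07 (adjusted p = 0.0117 by edgeR), but this removed no cell in 5 of 8 arms, and the part of these markers was not tested further. Nkg7, Ctsw, Fasl and Gzmk did not pass, with log2 fold changes of 0.14, 0.15, 0.60 and 0.54.

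**Figure D3:**
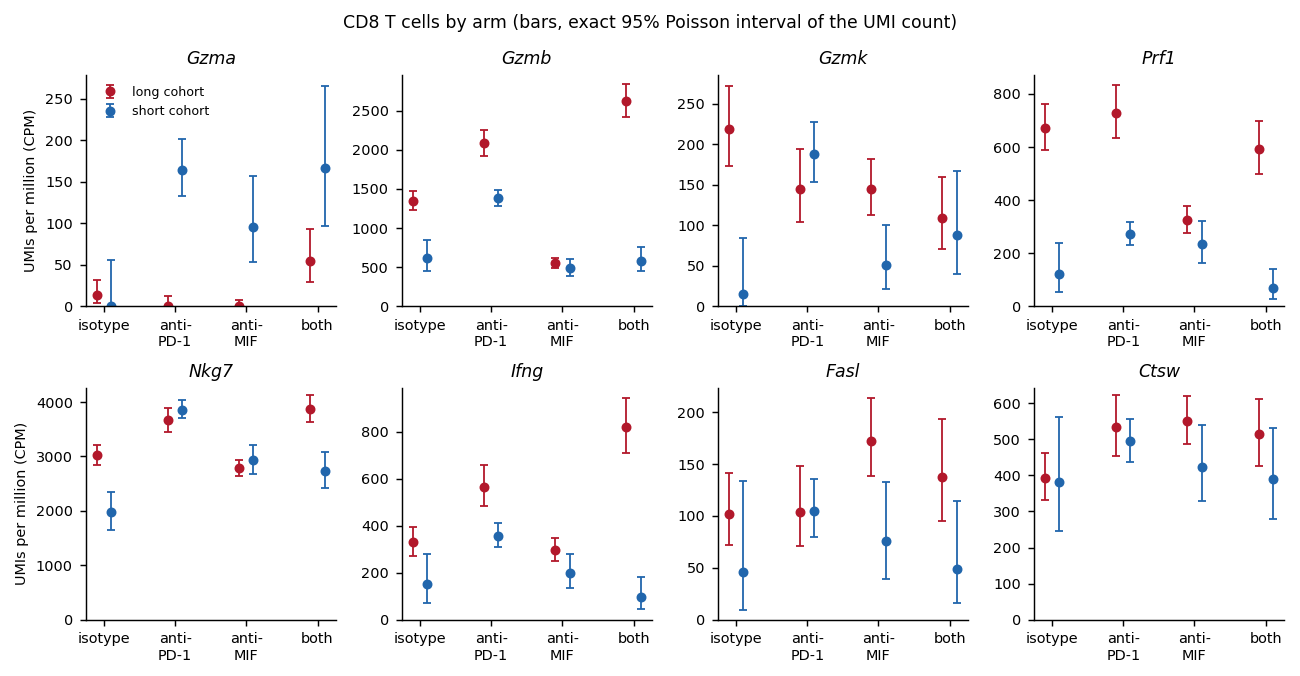
Level of each gene (CPM, linear axis from 0) in CD8 T cells of each arm, with exact 95% Poisson intervals of the UMI count (red, long cohort; blue, short cohort; "both" is the combination). Prf1 lies between 325 and 729 CPM in the long arms and between 68.4 and 271 in the short arms, and Gzmb is highest in the long arms with anti–PD-1.

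Neither antibody changed a member in CD8 T cells at an adjusted p below 0.05. For anti–PD-1, 0 of 4926 genes passed (0.0%) by edgeR, and DESeq2 called 0. An unadjusted p below 0.05 by edgeR was found for 257 genes, 4 of the 8 members among them. Gzmb came closest among the members: it was higher with anti–PD-1 in 4 of 4 pairs of arms, least in the short arms with anti-MIF (488 and 586 CPM), with a log2 fold change of 1.12 ± 0.23 (SE) and adjusted p = 0.218 by edgeR. The other log2 fold changes with anti–PD-1 were 1.74 for Gzma, 0.87 for Ifng, 0.36 for Nkg7, 0.19 for Prf1, 0.13 for Ctsw, 0.11 for Gzmk and 0.02 for Fasl. With every detected gene in the fit in place of the filtered ones, Gzmb (log2 fold change 1.18), Ifng (0.91) and Gzma (1.80) passed with anti–PD-1 by edgeR, 3 of 8 members beside 0.315% of all 14302 genes.

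For anti-MIF, 0 of 4926 genes passed (0.0%) by edgeR, and DESeq2 called 0. An unadjusted p below 0.05 by edgeR was found for 208 genes, 1 of the 8 members among them. Gzmb was lower with anti-MIF in 3 of 4 pairs (log2 fold change -0.54 ± 0.23 SE, adjusted p = 1.0 by edgeR), Prf1 in 3 of 4 (-0.55 ± 0.27) and Gzmk in 3 of 4 (-0.68 ± 0.34), none past the threshold. The remaining 5 log2 fold changes lay between -0.08 for Ifng and 0.78 for Gzma. The long anti-MIF arm, which held the lowest Gzmb and Prf1 of the long arms, also carried 902 CPM of 11 monocyte and macrophage markers in its CD8 T cells, with all 11 detected, against 15.2 to 57.0 CPM in the other 7 arms. The part of these UMIs in the result was not tested beyond leaving out cells that held Lyz2, C1qa or C1qb, under which no member passed either.

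Whether an antibody acted differently between the cohorts was tested by an interaction term. Of 4926 genes, 2 passed for anti-MIF and 1 for anti–PD-1, none of them a member, and 309 and 238 had an unadjusted p below 0.05. The member with the smallest p was Gzmk for anti–PD-1 (log2 difference of fold changes -2.24 ± 0.61 SE, adjusted p = 0.497 by edgeR), whose level without and with anti–PD-1 was 218 and 144 CPM in the long arms without anti-MIF and 15.2 (1 UMI) and 188 CPM in the short ones. In the arms with anti-MIF it was 145 and 109 CPM (long) and 50.7 and 87.9 CPM (short).

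In CD4 T cells 3 members could be tested, Gzmb, Nkg7 and Ctsw, and none passed. Of these 3, 1 had an unadjusted p below 0.05 by edgeR for anti-MIF, 1 for anti–PD-1 and 0 between cohorts. By edgeR 0 of 1069 genes passed for anti-MIF (0.0%; 30 at an unadjusted p below 0.05; 0 by DESeq2), 0 for anti–PD-1 (0.0%; 18 at an unadjusted p below 0.05; 0 by DESeq2) and 1 between cohorts (0.0935%), which was Gm42418. In NK cells 7 members could be tested, and none passed for anti-MIF (0.142% of 1407 genes called), anti–PD-1 (0.0%; 85 at an unadjusted p below 0.05; 0 by DESeq2) or cohort (0.213%). Among them Gzmb had the smallest p between the cohorts (log2 fold change 1.05 ± 0.34 SE in the long cohort, adjusted p = 0.273 by edgeR, 3 of 3 pairs).

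**Figure D4:**
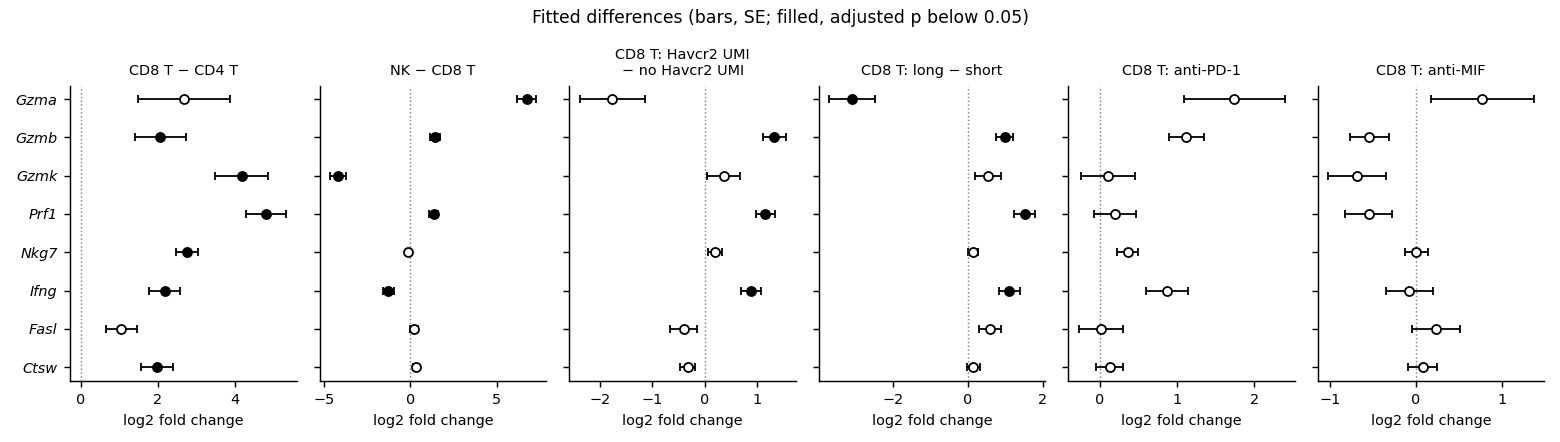
Fitted log2 fold changes (points) with SE (bars) of the 8 genes in 6 comparisons; the last 3 come from 1 fit over the 8 arms, and filled points passed an adjusted p of 0.05. Gzma is at 6.74 in NK against CD8 T cells and at -3.08 in long against short CD8 T cells, and no point is filled for either antibody.

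With anti-MIF in NK cells edgeR called 2 of 1407 genes (76 had an unadjusted p below 0.05, DESeq2 called 4, and the fit without the filter on low counts 16 of 12412), and the 2 were both granzymes outside the 8 members. Gzmd was at 954 CPM in the long anti–PD-1 arm, 260 in the short isotype arm and 450 in the short anti–PD-1 arm, and it was at 0 in all 4 arms with anti-MIF. Summed over those arms it was at least 37.0-fold lower with anti-MIF, against a floor of 3 counts over the 4 arms (13.0 CPM; adjusted p = 0.000463 by edgeR). Gzmc stood at 3563, 2900 and 3421 CPM in the same 3 arms without anti-MIF and at 1151, 49.8, 164 and 24.9 CPM in the 4 arms with it, a ratio of 9.55 in the summed levels (counting interval 7.65 to 12.1; adjusted p = 0.00467 by edgeR).
The NK cells of the short anti–PD-1 arm also carried 565 CPM of the 11 monocyte and macrophage markers, and both calls held without the cells that held Lyz2, C1qa or C1qb.
The 3 arms without anti-MIF lay above the 4 arms with it for both genes. The 4 NK cells of the long isotype arm, too few to enter the fit, held Gzmd at 494 CPM and Gzmc at 395 CPM, the latter below the long anti-MIF arm. Without the long combination arm of 9 NK cells neither passed (adjusted p = 0.0837 for Gzmd and 0.257 for Gzmc by edgeR). The log2 fold change of Gzmc, -4.43 with every arm of the fit, was then -3.73, and it reached -6.68 without the short isotype arm. Without the long anti-MIF arm, the highest of the 4 arms with anti-MIF, it was -5.22, and the ratio of 9.55 leans on that arm. Both genes passed without any single arm of the fit other than the long combination arm, and with the 9 other settings that bear on NK cells. Gzme, a further granzyme outside the members, had a negative fitted change and was higher with anti-MIF in 0 of 3 pairs of arms. It did not pass (adjusted p = 0.0533 by edgeR). Gzmc, Gzmd and Gzmf are close copies of one another, so reads could be split between them or lost. In CD8 T cells Gzmd was not at 0 with anti-MIF (36.2 CPM in the long anti-MIF arm), and there Gzmc did not pass and Gzmd was too low to be tested.

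**Figure D5:**
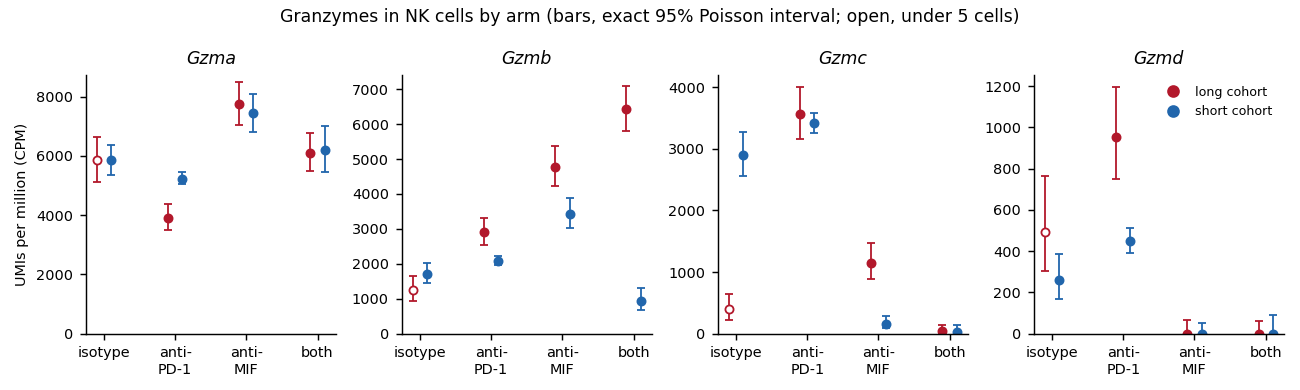
Gzma, Gzmb, Gzmc and Gzmd (CPM, linear axes from 0) in NK cells of each arm with exact 95% Poisson intervals (red, long cohort; blue, short cohort; "both" is the combination). The open point is the long isotype arm with 4 cells; Gzmd is at 0 in the 4 arms with anti-MIF, where Gzma lies between 6110 and 7736 CPM.

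Within CD8 T cells, the members were compared between cells with and without a UMI of Havcr2, the checkpoint receptor TIM-3, which marks chronically stimulated T cells. Of 3219 genes 11 were higher in cells with Havcr2 (0.342%), and 3 members were among them. Gzmb was 2.51-fold higher (log2 fold change 1.33 ± 0.21 SE, adjusted p = 0.00358 by edgeR, 7 of 7 arms) and Prf1 2.23-fold (1.16 ± 0.18, adjusted p = 0.00344 by edgeR, 7 of 7 arms). Pooled over the long cohort, Gzmb stood at 1881 CPM in 120 cells with Havcr2 and 527 in 84 cells without it, and in the short cohort at 1351 CPM in 65 and 839 in 117 cells.
Ifng was 1.84-fold higher (adjusted p = 0.0384 by edgeR, 6 of 7 arms), a call lost without any one of 5 arms. All 3 passed in the long cohort alone and none in the short cohort alone, where Gzmb differed by 0.76 and Prf1 by 0.89 on the log2 scale. Gzma stood lower in the cells with Havcr2 without passing (log2 fold change -1.77 ± 0.62 SE, adjusted p = 0.254 by edgeR), and Nkg7, Gzmk, Fasl and Ctsw lay within 0.41 of 0. A cell with more UMIs is more likely to show Havcr2. The 120 long cells with it held 941413 UMIs against 455220 in the 84 without. The part of depth in these differences was not tested.

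Tcf7, the transcription factor TCF-1 of stem-like T cells, split 31 CD8 T cells with a UMI from the rest, and 3 arms, all of the short cohort, had 5 cells on each side. By edgeR 0 of 979 genes passed (0.0%), with 190 at an unadjusted p below 0.05, 3 of the 7 tested members among them. DESeq2 called 15. In the cells with Tcf7 the fitted log2 fold changes were -3.00 ± 0.73 for Ifng, -2.24 ± 0.50 for Prf1, -1.92 ± 0.96 for Gzmb, -1.31 ± 0.28 for Nkg7 and 1.56 ± 0.68 for Gzmk (SE). Ifng, Prf1 and Nkg7 were lower in 3 of 3 arms and Gzmk was higher in 3 of 3.

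Perforin and granzyme B work as a pair, and their UMIs were counted in the same cells. Among thinned CD8 T cells, Gzmb was positive in 69.8% of cells with Prf1 and 40.0% of cells without it (mean over 8 arms), a difference of 29.9 ± 26.6 points (SD). The difference was positive in 7 of 8 arms (sign-flip permutation test, exact and two-sided, p = 0.0156; 0.12 when adjusted over the 8 gene pairs compared, which misses 0.05). The exception was the short combination arm with 19 cells, at 33.3% and 43.8%. Without thinning, which leaves depth in the values, Gzmb with Prf1 differed by 32.9 points and Prf1 with Ifng by 21.4 points, each positive in 8 of 8 arms (adjusted p = 0.0312 in the same exact permutation test). With thinning to 1000 UMIs, Gzmb with Prf1 differed by 30.7 points in 8 of 8 arms (exact permutation p = 0.0078, adjusted 0.0625). With 8 arms this test cannot give a smaller p. After adjustment over 8 pairs, 1 pair alone therefore could not pass 0.05. No other pair had an exact permutation p below 0.05 after thinning, and co-detection of Gzmb with Gzmk differed by 6.78 ± 25.3 points.

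Genes that make, hold or restrain the effectors were counted from fixed lists. Of all 2015 genes tested between CD8 and CD4 T cells, 130 were higher in CD8 T cells (6.45%) and 87 lower. Against CD4 T cells, CD8 T cells were higher for 2 of 6 tested genes of granule processing and release, Lyst, a lysosome trafficking regulator (log2 fold change 1.66), and Cst7, an inhibitor of cathepsins (1.45). Of 6 tested ligands and cytokines 4 were higher (Xcl1, Ccl4, Ccl5 and Ccl3) and Il10 was lower, at 0 UMIs in CD8 T cells and at least 44.9-fold higher in CD4 T cells against 3 counts over the class. Ccl4 differed by 4.28 and Ccl5 by 3.24 on the log2 scale. Of 7 effector transcription factors Runx3 (2.07) and Tbx21, which encodes T-bet (1.89), were higher and Batf was lower (-1.27). Of 6 tested receptors for the effectors none passed in either direction, and all 5 tested receptors that trigger or restrain killing were higher in CD8 T cells, among them Klrk1, which encodes NKG2D (3.57), and Klrc1, an NKG2 receptor (2.53). The largest change among these 5 receptors was that of Klre1, with 358 UMIs in CD8 T cells and 1 in CD4 T cells. The protease inhibitor Serpinb9, which guards the killer cell against its own granzyme B, was higher as well (1.57). So was the granzyme Gzmf, with 1099 UMIs in CD8 T cells and 0 in CD4 T cells.

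Between the killer classes the granzyme family was divided further. Gzmc was 23.9-fold higher in NK cells (6 of 7 arms). Gzmd was higher in 3 of 7 arms, and it was at 0 in NK cells of the 4 arms with anti-MIF. Its fitted 6.71-fold difference averages over both kinds of arm and depends on how the values at 0 are handled. Gzmf was a CD8 T cell gene, with 1099 UMIs in CD8 T cells and 3 in NK cells of the same arms (ratio 172, counting interval 58.5 to 833). Serpinb9 (log2 fold change 1.29) and Serpinb6b (1.05) were higher and Serpinb6a (-1.08) lower in NK cells. Xcl1 was 10.2-fold higher in NK cells, whereas Tnf (-2.43) and Ltb (-1.93) were lower. Eomes, a T-box factor of NK cells, was 11.8-fold higher, and Tyrobp, the signaling adaptor DAP12, 80.8-fold. Of 10 tested receptors and adaptors that trigger or restrain killing 6 were higher and 2 lower, beside 7.69% and 8.17% of all 2276 genes. Of the receptors for the effectors Ifngr1 (0.54) and Jak1 (0.69) were slightly higher in NK cells.

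Other listed genes differed in CD8 T cells in the same comparisons as Prf1 and Gzmb. In the long cohort Cst7 (log2 fold change 0.84), the granzyme inhibitors Serpinb9b (1.95) and Serpinb6a (1.18), the chemokines Ccl3 (1.74) and Ccl4 (1.20) and the receptors Cd160 (1.28) and Klrc1 (0.60) were higher, each at an adjusted p of 0.0466 or lower by edgeR. They were 1 of 11 tested genes of granule processing and release, 2 of 4 inhibitors, 2 of 7 ligands and cytokines and 2 of 9 receptors that trigger or restrain killing, beside 2.52% of all genes. None of these genes was lower, and none of 3 other granzymes, 9 transcription factors and 7 receptors for the effectors passed. In cells with Havcr2, Gzmc (3.37), Gzmf (2.53), Ccl3 (1.51) and Ccl4 (1.24) were higher, which is 2 of 3 tested other granzymes and 2 of 7 ligands and cytokines, beside 0.342% of all genes. None of the genes tested from the other 5 lists passed there. The median log2 fold change over the 8 members was 0.57 between the cohorts, beside 0.01 over all genes tested, and 0.28 with Havcr2, beside -0.02.

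The genes most like each member were sought over 30 sums of classes and arms, as Pearson's r of log2(CPM + 10) among 10470 genes, a description over sums that share libraries and cells. Gzma followed the NK receptors Klra4 (r = 0.94), Klra8 and Klra7 (r = 0.93 for both). Nkg7 followed Sh2d2a, an adaptor of T cell signaling, and Ctsw (r = 0.96 for both) and Il2rb (r = 0.94), and Ctsw in turn Nkg7, Il12rb2 and Tbx21 (r = 0.91). Gzmb followed Sytl3 (r = 0.90), Prf1 (r = 0.89) and Ctla2a (r = 0.88), and Prf1 followed Setbp1 (r = 0.95), Styk1 and Adamts14. Fasl followed Ms4a4b (r = 0.90), AW112010 and Nkg7, Ifng followed Stk39 (r = 0.90), B4galnt1 and Klrc1, and Gzmk followed Filip1 (r = 0.93), Gm156 and Gm44174. Among members the only pair with a negative r was Gzma with Gzmk (r = -0.16).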

How the data were processed

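The authors sequenced 5′ single-cell libraries and deposited the whole-number UMI counts that Cell Ranger 7.1.0 gave per gene and per hashtag after alignment to mm10, as 1 filtered matrix of genes and hashtags per cohort, without normalization. The submitters' processing notes also name Seurat 5.1.0, R 4.3.2 and DESeq2. Doses, per the methods, were 10 mg/kg of anti–PD-1 and 20 mg/kg of anti-MIF. The members and gene lists were chosen with earlier results of these data known. From the deposited counts, barcodes were assigned to arms with HTODemux (Seurat 5.3.0, R 4.3.3; positive quantile 0.99) and hashtag doublets (425 of 2516 barcodes in the long and 626 of 4987 in the short cohort) and negatives (24 and 176) were removed. Cells with 200 to 5000 genes and at most 5% mitochondrial UMIs were kept. The methods name 1671 cells; the filter used here left 1671 in the long and 3119 in the short cohort. Doublets within an arm and free RNA were not removed. The 2 matrices shared 20 barcode sequences, 12 of them among kept cells. Cells of a 5th hashtag, which the sample labels do not name, entered no fit or test.

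UMIs were summed per arm and class (at least 5 cells) and tested with edgeR 4.0.16 (filterByExpr, TMM, quasi-likelihood test, Benjamini-Hochberg over all genes tested, threshold 0.05). Class comparisons had arm as a block, and effects came from 1 additive model of anti-MIF, anti–PD-1 and cohort. Cd3e, Cd8a, Cd4, Ncr1 and the gene of a split were not tested. Since nothing marks replicates, p-values measure the spread between arms, which includes the treatments. The edgeR fits of 2 comparisons were checked on counts simulated from 1 mean profile with 1 common dispersion and no arm effects. Such counts are simpler than the data. Intervals are exact (Poisson, Clopper-Pearson, 95%). Lower limits of folds use a floor of 3 counts. The text names all members and the 3 genes most like each member. Of each list it names up to 4 called genes, or counts alone where none was called. These are not always the called genes with the largest change, and not every called gene is named. Added after the data were seen were Ccl3, Klre1 and Gzmf beside CD4 T cells and values of genes by arm. So were genes that were the only ones called in a comparison. Positions are from GENCODE vM21 on GRCm38, joined by Ensembl identifier. Alternatives were 2 other hashtag calls, 10% mitochondrial UMIs, no upper limit on genes, a looser T cell rule, no cells with Lyz2, C1qa or C1qb, no filter on low counts, DESeq2 size factors, DESeq2 1.42.0, no block, each cohort alone, each arm left out and other thinning. Leaving out CD8 T cells with NK markers (7 of 386 cells, none in 5 of 8 arms), each arm from the Foxp3 split and the sources of UMIs, and each pair of arms from the class shares were added after seeing the data. The split of CD4 T cells by Foxp3 was planned as a fit but 1 arm alone had 5 cells on each side, so pooled levels are given.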

Additional observations from a re-analysis of the deposited data

Results flagged for a closer look

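Barcodes of an additional hashtag, whose name joins PD-1, MIF and DDT and which no sample label explains, entered no fit and no test. They included 15 CD8 T cells among 322 cells of the long cohort, and 32 among 993 of the short one. For CD8 T cells, 7 of 16 values (8 members in 2 cohorts) lay above the isotype arm of the same cohort with counting intervals that did not overlap, 1 lay below it and 8 overlapped. Of all genes with a UMI on either side, 1.30% lay above in the long and 0.976% in the short cohort, and 2.33% and 2.79% of those with at least 10 UMIs on both sides together. Below it lay 0.817% and 0.385%, and 1.63% and 0.930% of those with 10 UMIs. The 8 values of the 12 NK cells of the short cohort all overlapped those of the isotype arm. Of all genes with a UMI there, 0.340% lay above and 0.516% below. Of those with at least 10 UMIs, 1.14% lay above and 1.73% below. In the short cohort Gzma stood at 507 CPM (isotype 0), Gzmb at 1305 (624) and Nkg7 at 3224 (1979). In the long cohort Gzmb stood at 2130 CPM (1347), Gzmk at 399 (218), Nkg7 at 3778 (3025) and Ifng at 588 (329). Prf1 lay below the isotype arm in the long cohort (420 and 672 CPM). Arms with anti–PD-1 reached similar levels of Gzmb, Nkg7 and Ifng. The short anti–PD-1 arm held 1382 CPM of Gzmb and 3862 of Nkg7, and the long combination arm 2627 of Gzmb and 818 of Ifng. Gzma in the short cohort did not, at 164 CPM with anti–PD-1 and 166 with the combination. Nor did Gzmk in the long cohort (144 and 109 CPM). The intervals cover counting error only, there is 1 sample on each side, and no difference was tested.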

How the results depend on the processing

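Of 1014 values of members recomputed under other settings, 933 kept their direction and their side of the threshold. Of the rest 47 lost a call, 3 gained one and 31 changed sign. All 31 belonged to values for anti-MIF or anti–PD-1 in CD8 T cells that passed no threshold. This tally did not take in the comparisons against other cells or with Tcf7. Among other changes there, Gzma in CD8 T cells, at 0.08, became -0.38 (looser T cell rule), -0.47 (no Lyz2, C1qa or C1qb) and -0.46 (DESeq2). Gzmk in NK against other cells passed by edgeR with MULTIseqDemux (adjusted p = 0.0246), no upper limit on genes (0.0222) and the looser rule (0.0177). Without the arm block, the number of members called was 3 for CD8 T against CD4 T cells (6 with it; 7.63% of all genes tested without it), 3 for NK against CD8 T cells (5; 15.1%), 0 with Havcr2 (3; 0.102%) and 1 with Tcf7 (0; 4.49%). In the short cohort alone it was 3 for NK against CD8 T cells (9.52% of genes) and 0 with Havcr2 (0.0698%). With Tcf7 it was also 1 under the looser T cell rule (2.18% of genes), 4 without the filter on low counts (0.985%) and 1 by DESeq2 (1.53%). With anti–PD-1 and no filter it was 3 in CD8 T cells (0.315% of genes) and 1 in CD4 T cells (0.0266%; 0 members in both with the filter). With 1 arm left out it ran from 1 to 4 between cohorts in CD8 T cells (1.57% to 6.26% of genes), from 2 to 4 with Havcr2 (0.297% to 1.06%) and from 0 to 1 for anti–PD-1 in CD4 T cells (0.0% to 0.653%). The causes were not tested.

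The log2 fold change of Nkg7 with anti-MIF, 0.00, became -0.028 (stricter HTODemux quantile), -0.0097 (MULTIseqDemux), -0.015 (10% mitochondrial UMIs), -0.013 (DESeq2 size factors), -0.013 (DESeq2), -0.018 (no NK markers), -0.0017 (no filter) and -0.00064 (no Lyz2, C1qa or C1qb). That of Ifng became 0.067 under the looser rule, that of Gzma -0.69 without cells with Lyz2, C1qa or C1qb, and that of Fasl with anti–PD-1 -0.037 with MULTIseqDemux. With 1 arm left out, values with anti-MIF ran from -0.030 to 0.58 for Fasl, -0.13 to 0.12 for Nkg7, -0.53 to 0.22 for Ifng and -0.058 to 0.16 for Ctsw, and with anti–PD-1 from -0.27 to 0.27 for Fasl, -0.060 to 0.54 for Prf1, -0.28 to 0.48 for Gzmk and -0.012 to 0.23 for Ctsw.

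The mean change of the CD8 T cell share with anti–PD-1, -0.21 points over 4 pairs, became 0.175 without cells with Lyz2, C1qa or C1qb and 0.0838 without CD8 T cells with NK markers (exact permutation p = 1.0 in each). With 5 to 15 CD4 T cells and 8 to 14 NK cells in most arms, these classes limit what could be detected. The labels give the arms no replicate numbers, so none served as a block, and class comparisons were paired within arms.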

Other observations

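The lymphocyte classes themselves differed in number between the arms, as shares of a sorted and recombined mixture. CD8 T cells were 26.5%, 15.0%, 7.62% and 13.0% of cells in the long cohort (isotype, anti–PD-1, anti-MIF, combination) and 1.88%, 8.32%, 5.94% and 4.69% in the short cohort. NK cells were 1.96%, 3.13%, 1.25% and 3.35% and then 1.88%, 5.62%, 1.44% and 1.79%. The NK share was higher with anti–PD-1 in 4 of 4 pairs of arms, by 1.84 points on average, or 1.21 without the pair of the short anti–PD-1 and isotype arms; with MULTIseqDemux it was higher in 3 of 4, by 1.60 points (exact permutation p = 0.25). With 4 pairs an exact sign-flip permutation test cannot go below p = 0.12, the value for the NK share. The CD8 T share was lower with anti-MIF in 3 of 4 pairs, by a mean difference of -5.12 ± 9.74 points (SD; exact permutation p = 0.5), and the mean was -0.54 points without the pair of the long isotype and anti-MIF arms.

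Cells with a Siglech UMI, a marker of plasmacytoid dendritic cells, held Ctsw at 42.3 CPM in the long and 15.7 CPM in the short cohort.

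Cells with Cd3e but neither Cd4 nor Cd8a, counted among the other cells, held Gzmb at 252 to 2310 CPM (median 547) and Nkg7 at 419 to 1500 CPM (median 629) over 7 arms, with the highest Gzmb in the long anti-MIF arm. Gzma in these cells ran from 0 to 1833 CPM between arms.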
